A study of Mus musculus with 2 samples.

Results

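The TREM2 signalling chain was followed from the receptor through its adaptor to the kinase, phospholipase, phosphatase and effectors in microglia sorted from mouse retina. The 8 genes were chosen by name: *Trem2*, *Tyrobp*, *Hcst*, *Syk*, *Plcg2*, *Inpp5d*, *Vav1* and *Pik3ap1*. Of these, 7 were analysed among the 13549 genes of the count table, and *Hcst*, which encodes the adaptor DAP10, was not analysed here.

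Both groups were retinal microglia taken at postnatal day 5 from animals of genotype CD11c-Cre-gfp;Rosa-TDTom, in which the CD11c promoter drives a Cre recombinase carrying GFP, and Cre switches on a lasting TdTomato reporter. The Cd11c-active group was sorted as GFP+TdTom+ (4041 cells), and the Cd11c-lineage group as GFP-TdTom+ (5441 cells). Both were sorted from 8 retinas, with 4 female and 4 male in the pool, and gave 1 library each. With 1 library each, the difference between the groups had no replicate check. Each test compared the reads of these 2 libraries, not the conditions. *Itgax*, the gene of CD11c, had 4107 reads over both libraries and a log2 ratio of 0.69. Among genes with 3200 to 6399 reads the robust standard deviation of log2 ratios was 0.45. The libraries held 12943998 (Cd11c-active) and 13402625 (Cd11c-lineage) reads.

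TREM2 is a microglial surface receptor for lipids, lipoproteins and the surface of dying cells, and it has no signalling motif of its own. It pairs in the membrane with DAP12, the product of *Tyrobp*, whose tyrosine motif (ITAM) is phosphorylated by SRC family kinases and then binds the kinase SYK. SYK activates phospholipase C gamma, PI3 kinase and VAV exchange factors, while the lipid phosphatase SHIP1, the product of *Inpp5d*, removes the lipid that PI3 kinase makes. In microglia the receptor is known for the clearance of apoptotic cells and for the entry into lipid-handling states.

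PU.1, an ETS factor of the myeloid lineage, binds the purine-rich core GAGGAA, and RefSeq promoters (GRCm38.p6, 250 bases before to 50 after a start) were matched by symbol for 7 of the 8 genes. These genes included *Hcst* but not *Tyrobp*, and *Syk* had more than 1 window. The letters GAGGAA occurred on either strand in 5 of the 8 windows, against 28.3% of 32851 promoter windows. That is a description of letters and not of binding. No match was found in the windows of *Hcst* and *Plcg2* or in 1 of those of *Syk*. The windows of the genes with the highest ratio (*Trem2*), the most reads (*Inpp5d*) and the lowest ratio (*Pik3ap1*) are shown 5′ to 3′ on the gene's strand. Capitals mark GAGGAA or its reverse complement TTCCTC. The *Trem2* window (chr17:48346151-48346450, plus strand) had 1 match, on the reverse strand, beginning 40 bases before the start. The *Inpp5d* window (chr1:87620062-87620361, plus strand) had 1 match on each strand, and the *Pik3ap1* window (chr19:41385053-41385352, minus strand) had 1 match, on the forward strand.
Trem2: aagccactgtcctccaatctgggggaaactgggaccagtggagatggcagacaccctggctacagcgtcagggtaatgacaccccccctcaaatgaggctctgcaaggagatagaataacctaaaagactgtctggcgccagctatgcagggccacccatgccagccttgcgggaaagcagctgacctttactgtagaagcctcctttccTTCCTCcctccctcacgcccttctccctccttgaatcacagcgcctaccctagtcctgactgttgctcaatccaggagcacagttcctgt
Inpp5d: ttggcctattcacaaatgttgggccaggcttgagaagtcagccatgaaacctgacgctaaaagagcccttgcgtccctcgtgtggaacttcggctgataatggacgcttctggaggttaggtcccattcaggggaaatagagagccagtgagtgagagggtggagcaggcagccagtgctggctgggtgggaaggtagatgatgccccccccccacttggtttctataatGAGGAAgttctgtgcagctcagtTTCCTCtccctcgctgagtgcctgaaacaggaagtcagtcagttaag
Pik3ap1: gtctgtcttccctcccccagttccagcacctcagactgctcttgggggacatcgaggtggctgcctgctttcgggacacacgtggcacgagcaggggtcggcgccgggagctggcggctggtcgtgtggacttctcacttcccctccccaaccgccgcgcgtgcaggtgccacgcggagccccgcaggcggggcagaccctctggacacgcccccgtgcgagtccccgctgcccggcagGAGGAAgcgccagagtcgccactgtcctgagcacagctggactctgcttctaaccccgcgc

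The 7 genes were all strongly expressed in both libraries, and none differed between them by more than genes of similar abundance did. The receptor and its adaptor had the highest ratios, with *Trem2* 1.49-fold and *Tyrobp* 1.33-fold higher in Cd11c-active. The 5 genes downstream of them lay between 0.929-fold and 1.05-fold. Each ratio divides the Cd11c-active level by the Cd11c-lineage level, with library sizes scaled by TMM. CPM is the read count relative to the scaled library size. In bulk RNA, fewer cells expressing a gene and less RNA per cell cannot be told apart.

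*Trem2* (ENSMUSG00000023992), the receptor, had 7327 Cd11c-active reads (593 CPM) and 5584 Cd11c-lineage reads (397 CPM). Its level was thus the higher one in Cd11c-active. The log2 ratio was 0.58, with a 95% counting interval (exact Clopper-Pearson) of 0.53 to 0.63. Counting error covers only part of the spread, because genes of similar abundance differed between the libraries by far more than independent reads would. This excess, the overdispersion, compares the observed (robust) variance of log2 ratios with that of counting alone, and was 193 among genes with 12800 to 25599 reads and 145 among those with 6400 to 12799. Intervals from reads divided by it are called widened, and that of *Trem2* ran from -0.16 to 1.33 and included equal expression. Of the 500 genes nearest to *Trem2* in reads, 30 had a larger ratio, and the middle 95% of them ran from -0.68 to 0.74.

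*Tyrobp* (ENSMUSG00000030579), the adaptor, had 7079 Cd11c-active reads (573 CPM) and 6055 Cd11c-lineage reads (431 CPM). It too was the higher in Cd11c-active under TMM, by a smaller step than its receptor, and its log2 ratio turned to -0.11 when a trend with transcript length and GC content, described below, was removed. The log2 ratio was 0.41 (counting interval 0.36 to 0.46, widened interval -0.29 to 1.18), and 70 of the 500 genes nearest in reads had a larger one. The ratio of *Trem2* exceeded that of *Tyrobp* by 0.17 on the log2 scale, a difference that does not depend on the scaling between libraries. Its widened interval, from -0.92 to 1.19, included 0.

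*Syk* (ENSMUSG00000021457), the kinase that docks on the phosphorylated adaptor, had 4186 Cd11c-active reads (339 CPM) and 4524 Cd11c-lineage reads (322 CPM). These 2 levels were nearly equal. The log2 ratio was 0.07 (widened -0.69 to 0.87), and it turned to -0.06 when libraries were scaled to their totals. *Plcg2* (ENSMUSG00000034330), the phospholipase that releases calcium-mobilizing and protein kinase C-activating messengers, had 3978 and 4697 reads, or 322 and 334 CPM. Its log2 ratio was -0.05 (widened -0.85 to 0.73). The kinase and the phospholipase thus differed from each other by 0.13 on the log2 scale (widened -0.98 to 1.28).

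*Inpp5d* (ENSMUSG00000026288), the phosphatase that opposes PI3 kinase, had the most reads of the chain, 11069 for Cd11c-active (897 CPM) and 12102 for Cd11c-lineage (861 CPM). Its log2 ratio was 0.06 (widened -0.50 to 0.58), and -0.08 under library totals. This was the narrowest widened interval of the 7. The difference of *Syk* from *Inpp5d* was 0.02 on the log2 scale (widened -0.92 to 1.01), an interval that still holds a change of proportion in either direction.

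*Vav1* (ENSMUSG00000034116), an exchange factor that activates RAC GTPases and so actin remodelling, had 4942 and 5464 reads, or 400.3 and 389 CPM. Its log2 ratio was 0.04 (widened -0.69 to 0.73), and it turned to -0.09 under library totals. The difference of *Syk* from *Vav1* was 0.03 (widened -1.01 to 1.13). *Pik3ap1* (ENSMUSG00000025017), which encodes BCAP, an adaptor that brings PI3 kinase to the membrane, had 3938 and 4822 reads, or 319 and 343 CPM. It had the lowest log2 ratio of the chain, -0.11 (widened -0.89 to 0.68).

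**Figure D1:**
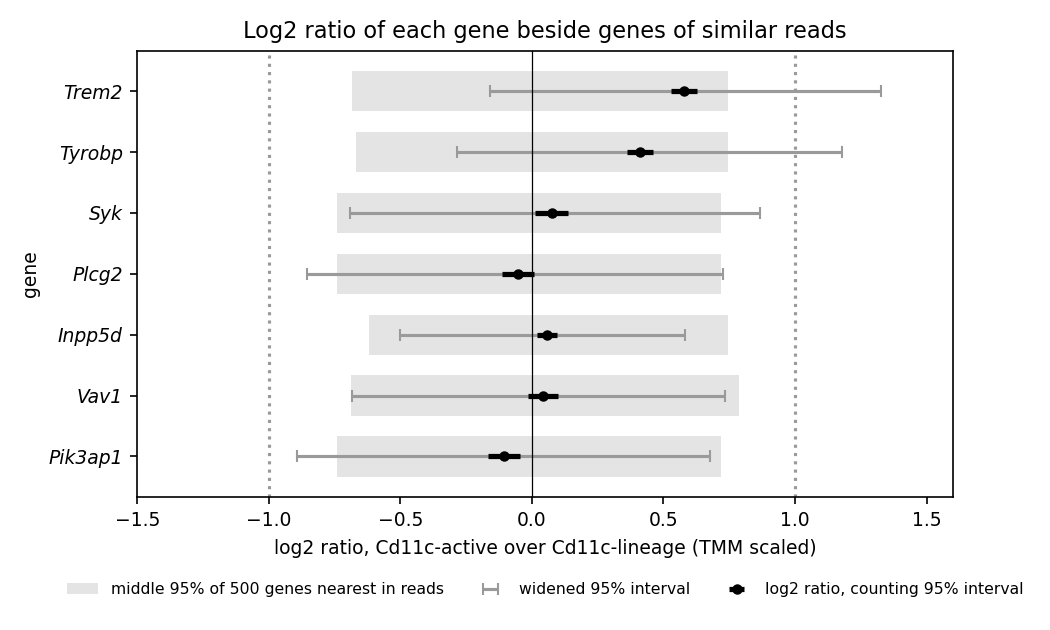
Log2 ratio (Cd11c-active over Cd11c-lineage) of each of the 7 genes, with its 95% counting interval (black), its widened 95% interval (grey line) and the middle 95% of the 500 genes nearest in reads (grey bar). All 7 points lie inside their grey bars and between the dotted lines at a log2 ratio of -1 and 1, with *Trem2* (0.58) and *Tyrobp* (0.41) farthest to the right.

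Over the 7 genes the median log2 ratio was 0.06, beside 0.01 over the 13037 genes with at least 20 reads. A gene was counted as past the fold at an absolute log2 ratio of at least 1. Of the 7 genes 0 were past it, beside 44.9% of all tested genes and 1.45% of the 619 genes with 6400 to 25599 reads (0.969% higher and 0.485% lower), the range that holds all 7. The share over all genes is set by genes with few reads, as the plot of log2 ratio against reads shows. On divided reads, an exact binomial test (two-sided, adjusted by Benjamini-Hochberg over all tested genes) gave an adjusted p of 1 for each of the 7. None of the 7 thus joined the 0.176% of tested genes with an adjusted p under 0.05, or the 0.161% that were also past the fold, and 0 had an unadjusted p under 0.05, beside 2.32% of all tested genes. On reads as deposited 5 of the 7 had an adjusted p under 0.05 by the same test, which 85.7% of all tested genes also had.

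**Figure D2:**
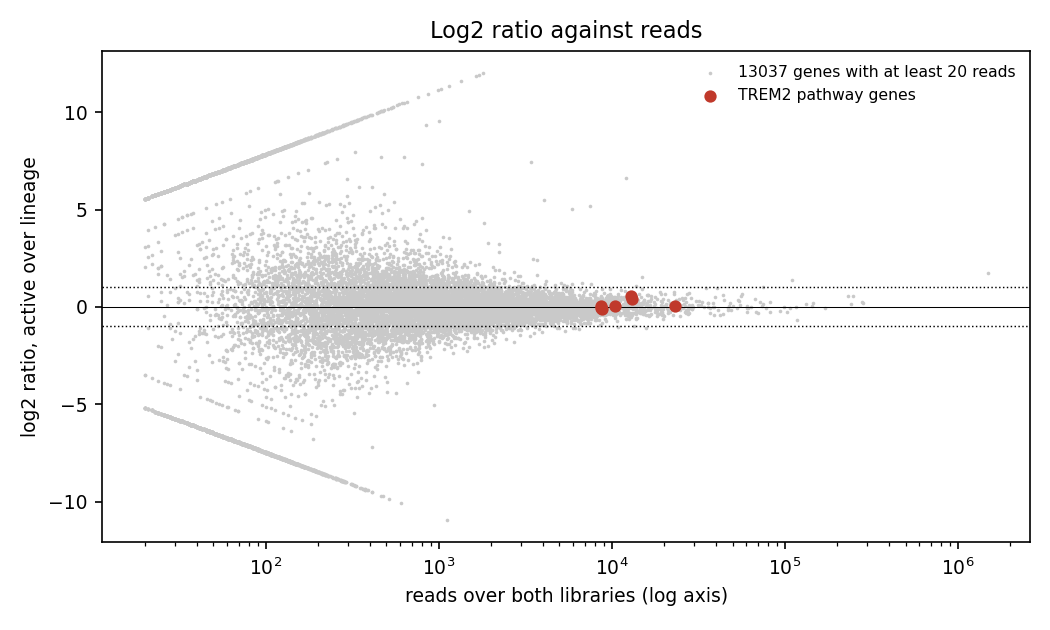
Log2 ratio (Cd11c-active over Cd11c-lineage) against reads over both libraries (log axis) for 13037 genes (grey) and the 7 genes of the chain (red), with dotted lines at -1 and 1 and genes at 0 reads in one library along the outer straight lines. The 7 genes have 8675 to 23171 reads, where the spread of the grey points is narrow, and lie between -0.11 and 0.58.

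TMM moved every log2 ratio up by 0.14 against scaling to library totals. Under TMM 5 of the 7 genes were higher and 2 lower in Cd11c-active, against 2 higher (*Trem2* and *Tyrobp*) and 5 lower under library totals. The log2 fold changes in the authors' deposited table ran from -0.24 for *Pik3ap1* to 0.44 for *Trem2*, with 0.28 for *Tyrobp*. The order of the genes by ratio, with *Trem2* first, *Tyrobp* second and *Pik3ap1* last, does not change between these scalings. Of the 21 pairs of genes that the 7 form, 17 differed in ratio by more than counting error and 0 by more than the widened interval, and the comparison of all pairs was chosen after the values were seen. The largest difference was that of *Trem2* from *Pik3ap1*, 0.68 on the log2 scale or 1.61-fold (widened -0.42 to 1.78).

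Transcript length separated the same genes. *Tyrobp* and *Trem2* had the shortest protein-coding transcripts of the chain, 597 and 1088 nucleotides, and the other 5 genes had 2963 to 5363. Among the genes with 6400 to 25599 reads, those with transcripts under 1600 nucleotides had a median log2 ratio of 0.35 (59 genes, middle 95% from -0.33 to 0.999). The median was 0.10 from 1600 to 3199 nucleotides (171 genes), -0.04 from 3200 to 6399 (249 genes) and -0.25 above (139 genes). Within the shortest class 12 genes had a larger ratio than *Trem2* and 25 a larger one than *Tyrobp*. After a trend of the ratio with transcript length and GC content, fitted on genes with at least 1000 reads, was removed, the log2 ratio of *Trem2* was 0.16 and that of *Tyrobp* was -0.11. The 5 other genes then had ratios of 0.07 (*Syk*), -0.10 (*Plcg2*), 0.06 (*Inpp5d*), -0.06 (*Vav1*) and -0.08 (*Pik3ap1*). The distance between receptor and downstream genes was thus smaller after the trend was removed, and *Tyrobp* and *Vav1* changed sign. The cause of the trend was not tested.

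**Figure D3:**
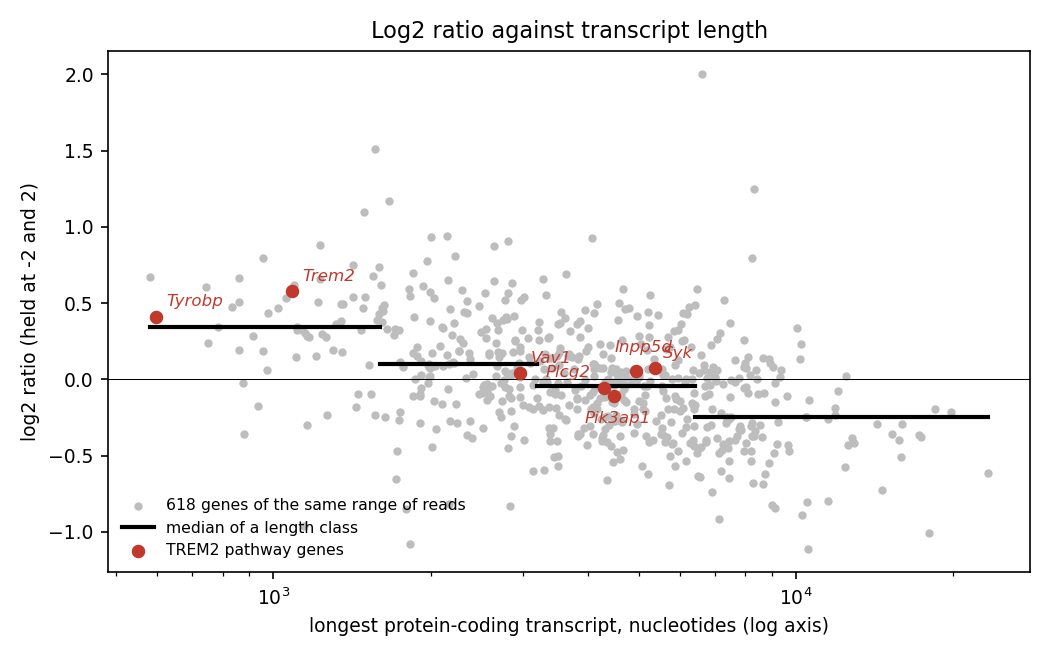
Log2 ratio (Cd11c-active over Cd11c-lineage, held at -2 and 2) against the longest protein-coding transcript in nucleotides (log axis) for genes with 6400 to 25599 reads (grey), with the median of each length class (black bars) and the 7 genes of the chain (red). The class medians step down from 0.35 in the shortest to -0.25 in the longest class, and *Tyrobp* and *Trem2* lie in the shortest.

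Levels of different genes were compared as CPM per kilobase of the longest protein-coding transcript. Per length the adaptor was the most abundant transcript of the chain, with *Tyrobp* at 960 CPM per kilobase for Cd11c-active and 722 for Cd11c-lineage. *Trem2* followed at 545 and 365. *Inpp5d* had 182 and 174, and *Vav1* 135 and 131. The lowest were *Plcg2* at 75.0 and 77.8, *Pik3ap1* at 71.2 and 76.6, and *Syk*, the kinase on which the ITAM signal depends, at 63.2 and 60.0. The order of the 7 was the same in both libraries. Among neighbours in it, the widened intervals of *Trem2* and *Inpp5d* did not overlap in either library, and those of the other 5 neighbouring pairs overlapped in both.

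On these lengths the adaptor and receptor transcripts were above those of the 5 downstream genes. *Tyrobp* had 15.2 times the level per length of *Syk* in Cd11c-active and 12.02 times in Cd11c-lineage. *Tyrobp* had 1.76 times the level of *Trem2* in Cd11c-active and 1.98 times in Cd11c-lineage, and DAP12 serves other receptors besides TREM2. *Inpp5d* had 2.87 and 2.91 times the level of *Syk*, and *Vav1* 2.14 and 2.19 times. The place of *Trem2* depends on its length: the annotation also lists a transcript of 4784 nucleotides with a retained intron, and on that length its level, averaged over the libraries, was 104 CPM per kilobase in place of 455, below *Inpp5d* (178) and *Vav1* (133). On the union of all exons it was 100.2, again below *Inpp5d* (116) and *Vav1* (107), while *Tyrobp* was the highest on each length.

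**Figure D4:**
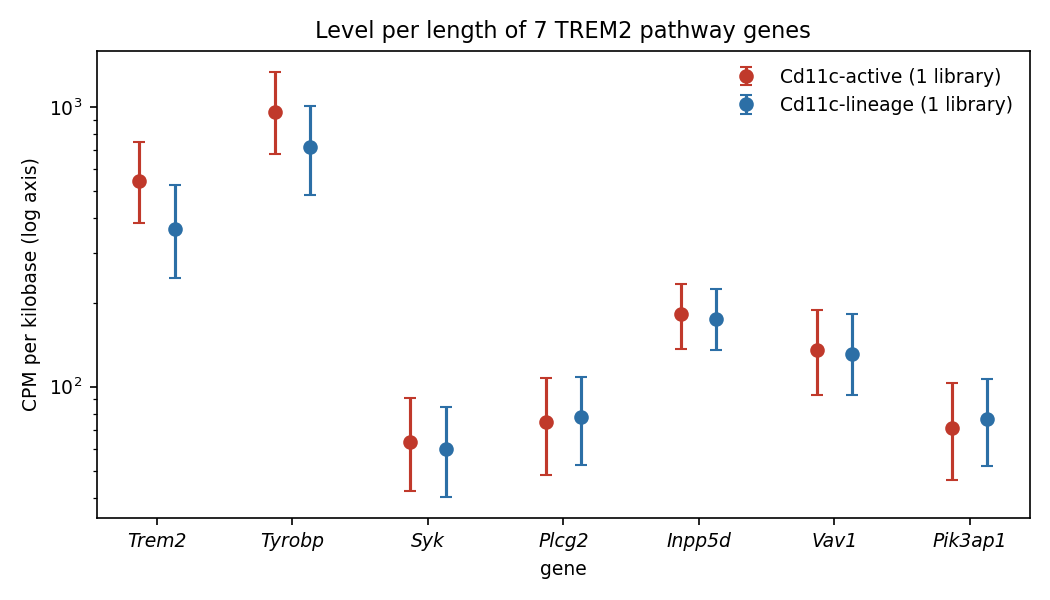
Level per length of the 7 genes (CPM per kilobase of the longest protein-coding transcript, log axis) in the Cd11c-active (red) and Cd11c-lineage (blue) libraries, 1 each, with widened 95% intervals. *Tyrobp* (960 and 722) and *Trem2* (545 and 365) stand above the other 5 genes, and the red and blue intervals of each gene overlap.

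Other genes of the pathway were taken from a list of 126 genes in 16 role groups. Of these, 111 had at least 20 reads and were tested, 1 had fewer and 14 were not analysed here. Their median log2 ratio was -0.08, and 49 were higher and 62 lower in Cd11c-active. Past the fold were 13 higher and 10 lower (11.7% and 9.01%), beside 23.3% and 21.6% of all tested genes. Among the 79 with at least 1000 reads, 4 were past the fold upward and 3 downward, beside 5.43% and 4.14% of all genes with as many reads. In either direction that was 8.86% beside 9.57%. The shares were thus below the background in the first comparison and near it in the second. On divided reads 0 of the 111 were called by the exact binomial test after Benjamini-Hochberg adjustment, beside 0.161% of all tested genes. Of the 111, 2 (1.80%) had an unadjusted p under 0.05 on divided reads, beside 2.32% of all tested genes. On reads as deposited 23 (20.7%) were called, beside 44.9% of all tested genes. Apart from *Malt1* and *Plcg1*, the genes of this list named below had the most reads of their group, or at least 1000 reads and a ratio past the fold.

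Upstream of the receptor, *Apoe*, a lipoprotein ligand of TREM2, was the most abundant gene of the list with 142760 Cd11c-active and 139781 Cd11c-lineage reads, a log2 ratio of 0.22 (widened -0.00 to 0.44) that turned to -0.18 once the length and GC trend was removed. *Adam10*, a sheddase that cuts TREM2 from the surface, had 7504 and 10277 reads, a log2 ratio of -0.27 (widened -0.89 to 0.37). Of the 10 shedding and intramembrane cleavage genes (median -0.08) 0 were past the fold upward and 1 downward. *Treml2*, another receptor of the TREM family, had 715 and 320 reads, a log2 ratio of 1.35 (widened -0.48 to 3.51).

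Among receptors that share the adaptors or SYK, 3 of the 6 tested were higher and 3 lower (median log2 ratio 0.09). The 3 with at least 1000 reads had a median of 0.73. One of these, *Siglech*, a DAP12-coupled lectin of microglia, had 2139 and 3539 reads. Its log2 ratio was -0.54 (widened -1.37 to 0.32) under TMM and -0.55 after trend removal. *Fcer1g*, the ITAM adaptor of Fc receptors, had 2064 and 1467 reads, a log2 ratio of 0.68 (widened -0.36 to 1.80). Like *Tyrobp* it has a short transcript, of 683 nucleotides, and its ratio was 0.25 after the trend was removed. The 2 ITAM adaptors thus had the same sign under TMM and opposite signs after trend removal.

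The SRC family kinases phosphorylate the ITAM, and of the 6 tested 2 were higher and 4 lower (median log2 ratio -0.10). *Lyn*, the most abundant, had 8984 and 10910 reads (log2 ratio -0.09, widened -0.68 to 0.49). *Btk*, a TEC family kinase that acts on phospholipase C gamma, had 768 and 1449 reads (-0.73, widened -2.08 to 0.52).

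Of 17 scaffold and adaptor proteins 8 were higher and 9 lower (median -0.06). *Fyb*, an adaptor linking receptors to actin, had 4973 and 5575 reads (log2 ratio 0.02, widened -0.72 to 0.69). *Blnk*, which assembles phospholipase C gamma and BTK, had 1143 and 490 reads, a log2 ratio of 1.41 (widened -0.06 to 3.08). *Dok1*, an inhibitory docking protein, had 412 and 1072 reads, a log2 ratio of -1.19 (widened -3.03 to 0.39). Both intervals included equal expression.

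In the PI3 kinase arm 3 of 9 subunits were higher and 6 lower (median -0.24), and 4 of 9 effectors were higher and 5 lower (median -0.37). *Pik3r1*, the p85 alpha regulatory subunit, had 2720 and 5834 reads. Its log2 ratio was -0.91 with a widened interval of -1.76 to -0.07, which lay below 0, but its adjusted p on divided reads was 1 by the exact binomial test. *Rictor*, a subunit of the mTOR complex that phosphorylates AKT, had 403 and 1050 reads (log2 ratio -1.19, widened -3.03 to 0.39). Both have long transcripts (7113 and 9312 nucleotides), and after trend removal the ratios were -0.70 and -0.91. *Ctnnb1*, beta-catenin, had 9871 and 8501 reads (0.40, widened -0.21 to 1.02).

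In the group of phospholipase C gamma, calcium and protein kinase C genes, which holds *Plcg1*, the other phospholipase C gamma, 6 of 16 were higher and 10 lower (median -0.17). *Prkcd*, a protein kinase C activated by diacylglycerol, had 3133 and 4125 reads (log2 ratio -0.21, widened -1.08 to 0.64). *Orai1*, the plasma membrane channel through which calcium enters after store release, had 1113 and 287 reads. Its log2 ratio of 2.14 (widened 0.32 to 4.05) was the largest of the pathway genes with at least 1000 reads, and 1.83 after trend removal. The gene was not called on divided reads. In the branch to NF-kB 1 of 3 genes was higher and 2 were lower (median -0.62). *Card9*, the scaffold that SYK signalling engages, had 460 and 1147 reads (-1.13, widened -3.13 to 0.26), and its partner *Bcl10* had 732 and 1282 (-0.62, widened -1.92 to 0.74). *Malt1*, the protease of the complex, had 358 and 294 (0.47, widened -1.71 to 2.84), and was named after its values were seen.

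In the cytoskeletal arm, *Wasf2*, which drives branched actin downstream of RAC, had 6482 and 8019 reads (log2 ratio -0.12, widened -0.81 to 0.57). Inhibitory ITIM receptors oppose the chain through phosphatases, and 2 of 8 were higher and 6 lower (median -0.25). Among them *Sirpa*, which recruits phosphatases, had 35700 and 42357 reads (-0.06, widened -0.50 to 0.35). In the separate group of tyrosine phosphatases, *Ptprj*, a receptor tyrosine phosphatase, had 7574 and 8735 reads (-0.02, widened -0.68 to 0.63).

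**Figure D5:**
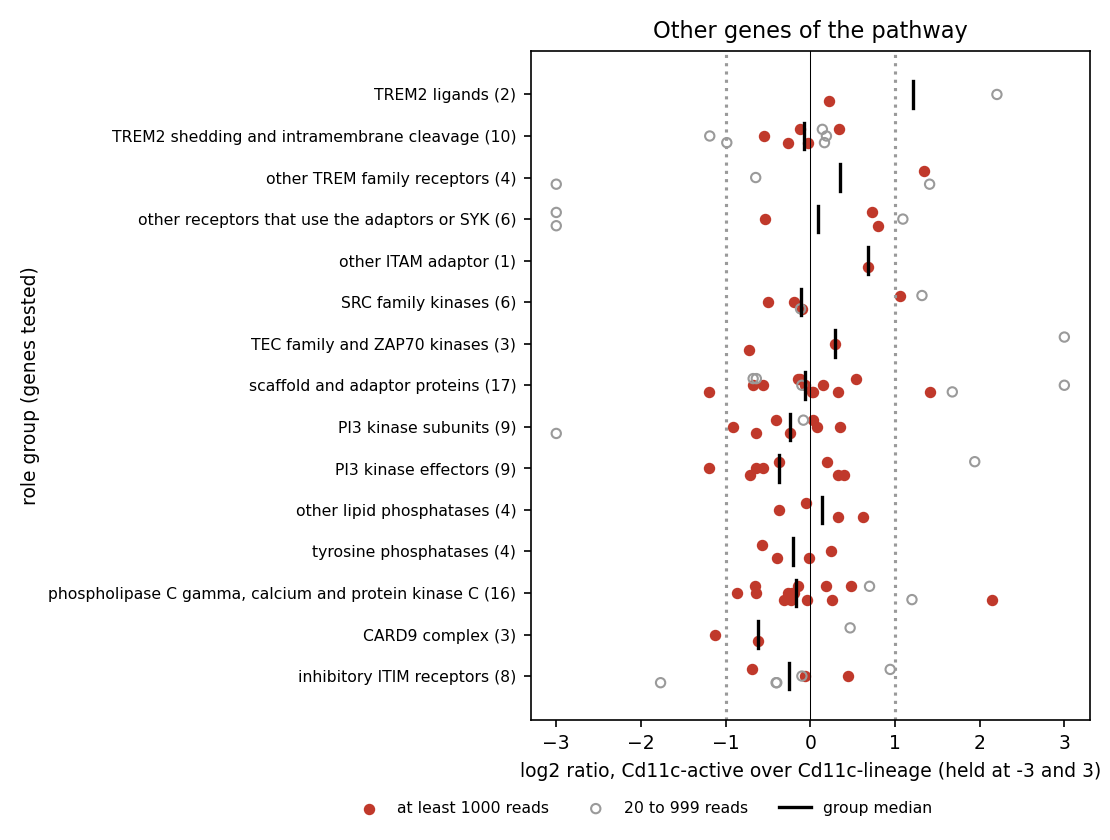
Log2 ratio (Cd11c-active over Cd11c-lineage, held at -3 and 3) of 102 other pathway genes in 15 role groups, with genes of at least 1000 reads filled, genes with fewer reads open, group medians as bars and dotted lines at -1 and 1. Among filled points 4 lie above 1 and 3 below -1.

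Markers described what else the libraries held. All 12 microglial markers had reads in both, with summed levels of 22193 and 21431 CPM and log2 ratios from -0.36 (*P2ry12*) to 0.22 (*Gpr34*). The 8 endothelial markers summed to 646 CPM for Cd11c-active and 73.7 CPM for Cd11c-lineage, where 5 had 0 reads. The 5 analysed border macrophage markers of 6 summed to 21.2 and 131 CPM, with 4 at 0 reads in Cd11c-active. Retinal neuron and photoreceptor markers (11 of 14 analysed) summed to 117 and 230 CPM, with 1 at 0 reads in each library. The 3 analysed Muller glia and astrocyte markers of 6 summed to 2263 and 2415 CPM, nearly all from *Glul*, and *Rlbp1* had 0 reads in Cd11c-lineage. Of other blood cells that use this chain, lymphocyte and natural killer markers (2 of 11 analysed) had 79 Cd11c-active reads and 1 Cd11c-lineage read. Monocyte and neutrophil markers (4 of 7 analysed) had 35 and 239 reads, with 3 at 0 in Cd11c-active and 1 at 0 in Cd11c-lineage, and mast cell and basophil markers (0 of 6) were not analysed here. The part of these cells in the ratios of the 7 genes was not tested.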

How the data were processed

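Raw counts per gene for both libraries were deposited by the authors as whole numbers, per the file headers, with their own log2 fold change (relative to library totals) and mean log2 CPM. The submitters' processing notes name cutadapt 3.5, STAR 2.7.9a, featureCounts 1.6.3, edgeR 4.0.16 and GRCm39. The annotation, the strand setting and the handling of duplicates are not given in the sources used here. No gene had fewer than 6 reads in all. Per the labels, ribosomal RNA was depleted and stranded libraries were made.

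Library sizes were scaled with TMM factors (0.954 for Cd11c-active, 1.05 for Cd11c-lineage) from edgeR 4.0.16 in R 4.3.3. The log2 ratio used reads plus 0.5 over effective library size. Genes with a sum of at least 20 reads were compared by the exact binomial test, two-sided, on reads divided by the overdispersion of their range of reads and rounded, adjusted by Benjamini-Hochberg, and a call needed an adjusted p under 0.05 as well as a log2 ratio past 1 in size. With 1 library per group no residual degrees of freedom remain, and edgeR's quasi-likelihood test could not be fitted. The overdispersion takes the typical gene as unchanged. The sources used here name no molecular identifiers, so reads may repeat molecules and counting intervals cover counting error only. A count of 0 allows up to 3 reads (0.243 and 0.214 CPM). Lengths and GC content came from the GENCODE M21 annotation of GRCm38, which matched 13499 genes (99.6%). Because the files use GRCm39, no gene coordinates are given, and promoter windows carry their own build. Sequences of proteins were not used here.

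The genes, the lists and the role groups were chosen with earlier results of these data known. The pathway genes to be named were those with the most reads of each group and those with at least 1000 reads past the fold. Some of these genes, and the counts of 1 group, are not reported here. The procedure was tested on simulated data. Alternatives were library totals, DESeq2 1.42.0 size factors, TMM without ribosomal, mitochondrial, 7SK and 7SL genes, no filter, a prior of 2 reads, removal of the length and GC trend, reads as deposited and other lengths. Tests ran in scipy 1.17.1 under Python 3.11.15, and p-values were adjusted with statsmodels 0.14.6.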

Additional observations from a re-analysis of the deposited data

How the results depend on the processing

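Scaling to library totals moved *Syk* to -0.062, *Inpp5d* to -0.078 and *Vav1* to -0.095 on the log2 scale and the median of the 7 genes to -0.078, and reversed these 3 genes. Removal of the trend with length and GC content moved the median to -0.064 and reversed *Tyrobp* (-0.11) and *Vav1* (-0.064), and the cause was not tested. Without that removal *Trem2* lay between 0.44 and 0.58 under the alternatives run. Under all alternatives run 0 of the 7 were called. A call needs an absolute log2 ratio of at least 1, and the largest was 0.58. The count of calls thus could not differ, whatever the p. The alternatives included DESeq2 size factors and the single overdispersion of genes with at least 800 and under 1600 reads, added after seeing the data. On reads as deposited the differences of *Trem2* from *Tyrobp* (0.17) and of *Syk* from *Plcg2* (0.13) passed the interval that they missed on divided reads, as that interval is wider by construction. With the union of exons as length, the mean level was 100.2 CPM per kilobase for *Trem2*, 35.3 for *Syk* and 116 for *Inpp5d*, and with the longest transcript of any type, added after seeing the data, 104 for *Trem2*. Pathway genes past the fold numbered 11 to 13 higher and 10 to 13 lower, and over all genes the counts were 2814 to 3313 and 2802 to 3081. No paired analysis was possible because each group had 1 library, and no replicate could be left out. The alternatives planned for *Hcst* were not run. With 1 library per group, a widened interval that holds 0 does not show that a gene was equal. That of *Trem2* also holds a 2.51-fold difference.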
